A study of Mus musculus with 2 samples.

Results

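The citric acid cycle enzymes were followed here through 9 genes, Cs, Idh2, Idh3a, Idh3b, Idh3g, Ogdh, Suclg1, Sucla2 and Fh1, out of 35163 genes in the count table. They were chosen by name and not by their values. The data were molecule counts from single fibres isolated from the flexor digitorum brevis (FDB), one of the small fast-twitch muscles under the foot, taken from untreated mice older than 3 months and labelled C57BL/6J, while the methods of the study name adult males of the C57BL/6J and DBA2 backgrounds. Of 763 sorted whole myofibers and fragments, the 171 with more than 5000 genes detected and less than 20% of counts from mitochondrial (mt-) genes were used, among them 168 whole myofibers and 3 fragments. Each cell was given a fibre class by the largest of its counts for the myosin heavy chain genes Myh1 (fast 2X), Myh2 (fast 2A), Myh4 (fast 2B), Myh7 (slow) and Myh8. By this rule 51 cells were fast 2A, 2 were slow and 1 was fast 2B, all others were fast 2X, and Myh8 led in no cell. The sources used here do not tie cells to animals, so that all cells were counted as 1 sample and no test was made between classes.

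The citric acid cycle takes up acetyl groups from sugars and fats in the mitochondrial matrix and passes their electrons to NAD and FAD, which feed the respiratory chain. Muscle fibres differ in how far they rely on this route, and fast 2A fibres are classically described as more oxidative than fast 2X and 2B fibres. Citrate synthase activity is a common measure of mitochondrial content in muscle.

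The 171 cells lay on 8 plates in 2 sequencing lanes and held 51923865 counts, from 28827 to 1542996 per cell. The median was 255726 counts in fast 2X and 206510 in fast 2A cells, and the median mt- share was 5.01% and 6.96%. No full cell barcode occurred more than once. The muscle marker genes Ckm, Acta1, Ttn, Neb, Tnnt3 and Pvalb together reached 128910 CPM (counts scaled to a total of 1000000 for the class or cell) in fast 2A and 123219 CPM in fast 2X fibres, with at least 23607.7 CPM in each fast 2X and 28231.2 CPM in each fast 2A cell. Markers of other cell types were low but not absent in the sums: endothelial genes were at 45.2 CPM in fast 2A against 49.3 CPM in fast 2X, smooth muscle genes at 26.2 against 49.0, Schwann cell genes at 16.3 against 28.5 and fibroblast genes at 46.6 against 46.1. Satellite cell genes (18.1 against 16.5 CPM), immune cell genes (14.0 against 13.3), red blood cell genes (8.82 against 22.0) and adipocyte genes (5.88 against 4.65) were also low, and no marker with a row in the table was at 0 over the kept cells. In single cells these lists ranged from 0 up to 10306 CPM, reached by the smooth muscle genes in 1 fast 2X cell, and 16 of the 171 cells exceeded 200 CPM in at least 1 list.

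All 9 genes were well detected. Together they gave 101130 counts, or 1948 CPM (95% limits 1936 to 1960), and the sum ranged from 482 to 3421 CPM per cell with a median of 2081 CPM. Limits here and below cover counting error only. No cell lacked Cs, Idh3a, Idh3b, Idh3g or Ogdh. Counts of 0 were found for Idh2 in 5 cells, for Fh1 in 4, for Sucla2 in 3 and for Suclg1 in 1. Set per kilobase of annotated exon, so that genes of different length can be compared, Idh3g was highest at 85.2 CPM per kb and Idh3b followed at 78.6. Ogdh (64.8 CPM per kb) and Cs (63.4) came next, then Suclg1 (49.6), Idh3a (38.7), Sucla2 (34.8) and Fh1 (31.7), and Idh2 was lowest at 22.4 CPM per kb. Neighbours such as Ogdh and Cs differed by less than the spread between cells. The library counts molecules captured by their tails, so that exon length need not scale the counts. In CPM without division by length the order was Cs (366 CPM), Ogdh (353), Idh3b (269), Idh3g (230.0), Suclg1 (229), Idh3a (196), Sucla2 (139), Fh1 (107) and Idh2 (58.0), so that the top of the order depends on the scale and Idh2 is lowest on both.

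In fast 2A cells Idh2, the mitochondrial isocitrate dehydrogenase that makes NADPH, was 2.23-fold higher than in fast 2X fibres, whereas Idh3a, the catalytic subunit of the NAD-dependent isocitrate dehydrogenase, was lower. Idh3b, Ogdh and Fh1 were modestly higher in fast 2A cells, and Cs, Idh3g, Sucla2 and Suclg1 differed least. The summed 9 genes were 2176 CPM (95% limits 2150 to 2203) in fast 2A and 1887 CPM (limits 1873 to 1901) in fast 2X fibres. The log2 ratio of the sum was 0.21 (limits 0.19 to 0.23), and without Idh2 it was 0.17. Per cell the sum ran from 757 over a median of 2373 to 3421 CPM in fast 2A cells, and from 482 over 1992 to 3172 CPM in fast 2X fibres, so that the classes overlapped over most of their range.

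Of the 9 genes, 8 had a ratio above 1, compared with 36.9% of the 8646 genes with at least 500 counts in both classes together. Only Idh2 was higher by at least 1.5-fold, which 2.57% of all these genes were, and none was lower by that much, compared with 7.31%. At a threshold of 25% Idh2, Idh3b and Ogdh were higher, beside 9.07% of all genes, and none was lower, beside 22.2%. The median log2 ratio was 0.15 for the 9 genes and -0.09 for all genes. Scaling by trimmed means (TMM) in place of totals raised every log2 ratio by 0.11. Ratios of single genes can be read against the median of all genes.

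**Figure D1:**
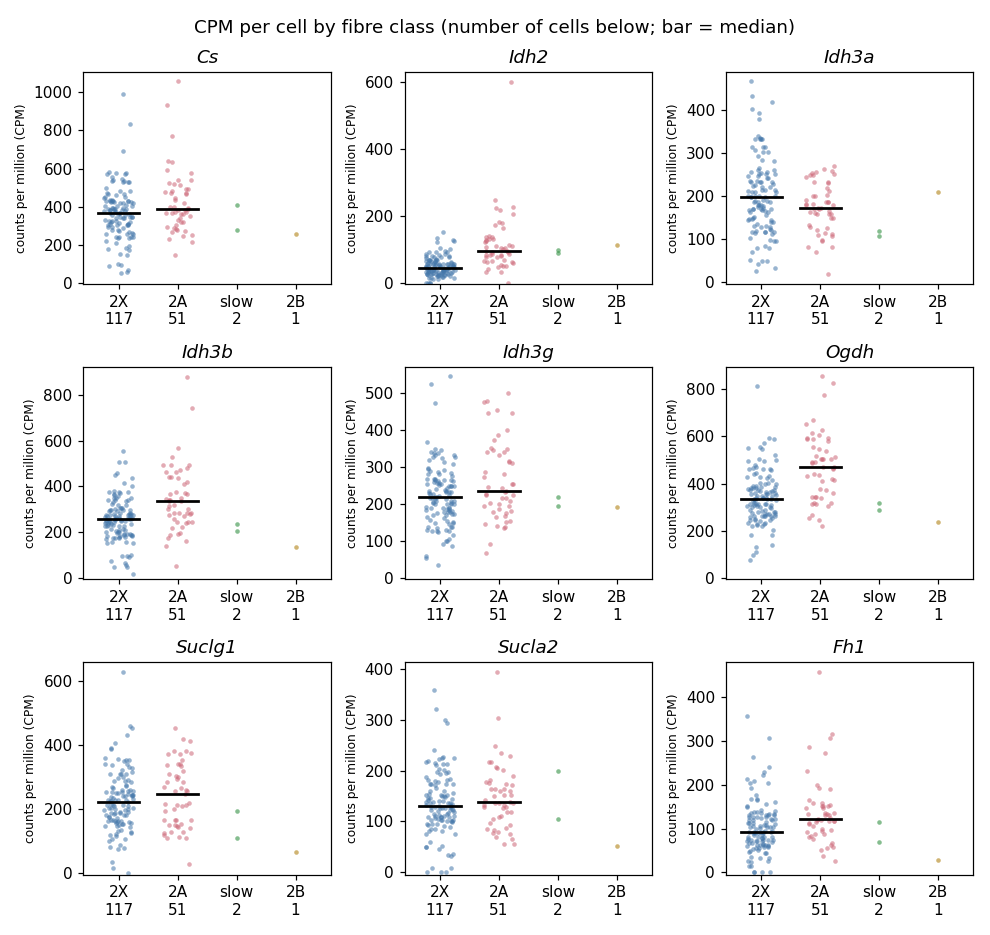
CPM per cell for each of the 9 genes (vertical axes, linear) by fibre class, with each point 1 cell and the bar the median of the fast 2X or fast 2A cells. Idh2 medians are 93.6 CPM in fast 2A and 44.5 CPM in fast 2X, while the points of the other genes overlap over nearly the whole range.

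Citrate synthase, Cs, opens the cycle by joining acetyl-CoA to oxaloacetate (chromosome 10, 128337734 to 128362479, plus strand, GRCm38; ENSMUSG00000005683.8). It was 395 CPM (95% limits 384 to 406) in fast 2A and 359 CPM (limits 353 to 365) in fast 2X fibres, a log2 ratio of 0.14 (limits 0.09 to 0.18). Single cells ran from 148 over a median of 386 to 1055 CPM in fast 2A, and from 56.3 over 368 to 988 CPM in fast 2X. Of the 51 fast 2A cells, 30 lay above the fast 2X median, and within plates the log2 ratio ran from -0.03 to 0.64 with 5 of 7 plates above 0. The 7 plates are those with at least 3 cells of both classes. Cs thus differed less between the classes than Idh2, Idh3b, Ogdh and Fh1 did.

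Both kinds of mitochondrial isocitrate dehydrogenase turn isocitrate into 2-oxoglutarate, Idh2 with NADP and the Idh3 complex with NAD. Idh2 (chromosome 7, 80094846 to 80115392, minus strand; ENSMUSG00000030541.16) was 99.3 CPM (95% limits 93.7 to 105) in fast 2A and 44.5 CPM (limits 42.4 to 46.6) in fast 2X fibres. Its log2 ratio of 1.16 (limits 1.05 to 1.27) ranked at position 53 of 8646 genes. Per cell it ran from 0 over a median of 93.6 to 601 CPM in fast 2A, and from 0 over 44.5 to 152 CPM in fast 2X. Of the 51 fast 2A cells, 47 lay above the fast 2X median and 10 above the highest fast 2X cell, while 8 fast 2X cells lay above the fast 2A median. A fast 2A cell was the higher of the pair in 84.4% of all pairs of 1 fast 2A and 1 fast 2X cell. The classes were thus shifted but not separate.

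The Idh2 difference was present on all 7 plates, with log2 ratios from 0.93 to 1.78, and Fh1 was the only other member above 0 on each of them. A ratio above 1 on every plate was found for 4.29% of all genes. No member was below 0 on each of the 7 plates, beside 7.12% of all genes. In lane 1 Idh2 was 103 CPM in fast 2A and 46.9 CPM in fast 2X fibres, and in lane 2 it was 94.9 and 42.6 CPM. Without the fast 2A cell at 601 CPM, which was chosen after its value was seen, the log2 ratio was 1.09. Without the 16 cells with over 200 CPM in a list of other cell types' markers it was 1.16. Within the lowest, middle and highest tertile of total counts it was 1.65, 1.04 and 0.95.

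Idh3a (chromosome 9, 54586334 to 54604661, plus strand; ENSMUSG00000032279.11) was 171 CPM (95% limits 164 to 178) in fast 2A and 205 CPM (limits 200.5 to 209) in fast 2X fibres. Its log2 ratio was -0.26 (limits -0.33 to -0.19), and it was the only one of the 9 below 0. Fast 2A cells ran from 18.5 over 172 to 269 CPM and fast 2X cells from 25.4 over 197 to 466 CPM. The classes overlapped, and the highest fast 2A cell lay below the highest fast 2X cell. The ratio was above 0 on 2 of 7 plates, with a range from -0.49 to 0.18, and it was -0.15 with TMM scaling. Against all genes it lay at percentile 28.4, while the other members were all above the median of all genes.

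The other subunits of the complex went the other way. Idh3b (chromosome 2, 130279309 to 130284547, minus strand; ENSMUSG00000027406.12), one of its non-catalytic subunits, was 323 CPM (95% limits 313 to 333) in fast 2A and 254 CPM (limits 249 to 259) in fast 2X fibres. The log2 ratio was 0.34 (limits 0.29 to 0.40), with 6 of 7 plates above 0 and a range from -0.20 to 0.79. Idh3g (chromosome X, 73778963 to 73786897, minus strand; ENSMUSG00000002010.17), the other non-catalytic subunit, was 249 and 225 CPM, a difference on the log2 scale of 0.15 (limits 0.09 to 0.21) with 5 of 7 plates above 0. Idh3b overlaps Nop56 and Fh1 overlaps Kmo, each on the opposite strand, and Idh2 overlaps the annotated transcript Gm45203 on its own strand. Reads in these overlaps could belong to either gene, and whether the counting used strand is not given in the sources used here.

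Shares within an enzyme do not depend on the total of a cell, and here the Idh3a and Idh3b shares kept their order on every plate. Idh3a made up 23.0% (95% limits 22.1 to 23.9) of Idh3a, Idh3b and Idh3g counts in fast 2A cells and 30.0% (limits 29.4 to 30.5) in fast 2X fibres. Its share was lower in fast 2A on 7 of 7 plates, with differences (fast 2A minus fast 2X) from -11.5 to -1.88 percentage points. Idh3b made up 43.5% (limits 42.4 to 44.5) in fast 2A and 37.2% (limits 36.6 to 37.7) in fast 2X fibres. It was higher in fast 2A on 7 of 7 plates, with differences from 0.38 to 11.4 percentage points. On plate 708 its shares were nearly level, at 40.9% in fast 2A and 40.6% in fast 2X. Idh3g was 33.5% and 32.9%, and its order changed between plates. Idh2 made up 36.7% (limits 35.1 to 38.4) of Idh2 and Idh3a together in fast 2A and 17.8% (limits 17.1 to 18.6) in fast 2X fibres, a gap of 11.0 to 21.7 points within plates. In single cells the Idh3a share had a median of 22.7% in fast 2A and 28.6% in fast 2X fibres, with quartiles of 18.5% and 28.2% against 23.1% and 34.2%.

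**Figure D2:**
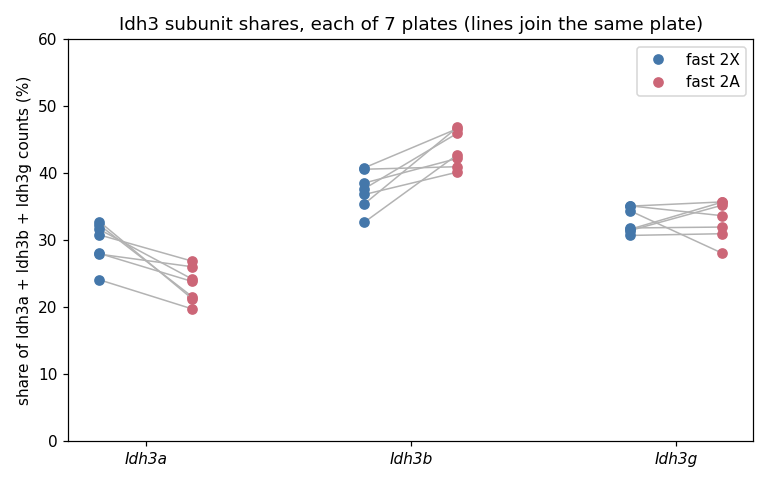
Share of each subunit gene in the summed Idh3a, Idh3b and Idh3g counts (vertical axis, percent) in fast 2X and fast 2A cells of the 7 plates, with each line joining the classes of 1 plate. The Idh3a line falls and the Idh3b line rises from fast 2X to fast 2A on each plate, and Idh3g goes either way. The smallest Idh3b rise is 0.38 percentage points.

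Since the isocitrate dehydrogenase genes held the members with the highest and the lowest class ratio, Idh2 and Idh3a, stretches before their starts are shown. They come from windows of 250 bases before the RefSeq start on GRCm38.p6, cut where an exon of the gene annotated by GENCODE begins. Idh3g keeps the full window. Idh2 and Idh3b are shorter and end at the base before the GENCODE start, which lies upstream of the RefSeq start. Idh3a is not among the genes shown. Capitals mark the letters CCGGAAG, a core that ETS factors such as GABP can bind. Idh2 and Idh3b lie on the minus strand and are given 5′ to 3′ at chr7:80115393-80115600 and chr2:130284548-130284701, and Idh3g, also minus, at chrX:73786898-73787147.
Idh2: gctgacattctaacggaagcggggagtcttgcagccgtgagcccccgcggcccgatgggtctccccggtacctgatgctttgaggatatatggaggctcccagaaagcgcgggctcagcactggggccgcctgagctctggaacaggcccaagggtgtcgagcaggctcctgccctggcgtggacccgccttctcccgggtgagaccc
Idh3b: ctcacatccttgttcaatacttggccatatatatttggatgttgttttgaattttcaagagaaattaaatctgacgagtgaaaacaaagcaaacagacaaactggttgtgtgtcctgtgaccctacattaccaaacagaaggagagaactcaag
Idh3g: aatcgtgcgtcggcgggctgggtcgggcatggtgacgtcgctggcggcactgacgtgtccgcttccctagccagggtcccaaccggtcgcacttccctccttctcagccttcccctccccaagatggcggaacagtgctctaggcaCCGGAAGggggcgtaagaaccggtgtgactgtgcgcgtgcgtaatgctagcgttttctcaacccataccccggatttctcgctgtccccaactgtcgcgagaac

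Of the 9 genes, 8 had an entry in the RefSeq promoter table. On both strands of the 250 bases before each start, AAGGTCA, a half-site of estrogen-related receptors, was in 0 of 8 genes, beside 4.70% of all 27025 genes (4.08% of their 32851 promoters). GCATGCGC, read by NRF1, was in 1 of 8 (Ogdh), beside 2.56% of all genes (2.26% of promoters). The Ogdh match is 1 site, 15 and 36 bases before 2 nearby alternative starts. This site lies inside the annotated gene, and the windows at the starts further upstream hold no match. CCGGAAG was in 1 of 8 (Idh3g, 104 bases before the start), beside 7.83% of all genes (6.91% of promoters). No motif holds another, and a match or its absence in this window describes the sequence only.

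Beyond isocitrate, Ogdh (chromosome 11, 6291633 to 6356642, plus strand; ENSMUSG00000020456.17) encodes the first component of the 2-oxoglutarate dehydrogenase complex. It was 433 CPM (95% limits 422 to 445) in fast 2A and 330.5 CPM (limits 325 to 336) in fast 2X fibres, a log2 ratio of 0.39 (limits 0.34 to 0.44). Fast 2A cells ran from 222 over 472 to 854 CPM and fast 2X cells from 76.2 over 337 to 814 CPM. After Idh2 it was the member that most often ordered the classes, with the fast 2A cell higher in 76.7% of pairs and 42 of 51 fast 2A cells above the fast 2X median. Within plates the log2 ratio ran from -0.10 to 0.62, with 6 of 7 above 0. The other components of this complex, Dlst and Dld, had log2 ratios of 0.44 (105 against 76.9 CPM) and 0.51 (78.6 against 55.2 CPM).

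Succinyl-CoA ligase couples the next step to ATP or GTP, and its members Suclg1 and Sucla2 were nearly level. Its shared alpha subunit Suclg1 (chromosome 6, 73248382 to 73276911, plus strand; ENSMUSG00000052738.14) was 232 CPM in fast 2A and 230 CPM in fast 2X fibres, a log2 ratio of 0.02 whose limits, -0.05 to 0.08, include 0. Its sign changed between plates, from -0.38 to 0.25. The ATP-forming beta subunit Sucla2 (chromosome 14, 73525319 to 73596142, plus strand; ENSMUSG00000022110.13) was 148 and 137 CPM, a difference on the log2 scale of 0.11 (limits 0.03 to 0.19) with 5 of 7 plates above 0. Suclg2, the GTP-forming alternative, was not level, at 40.4 and 31.4 CPM, a log2 ratio of 0.36 (limits 0.21 to 0.52). Sucla2 thus made up 78.5% (limits 76.8 to 80.2) of both beta subunits in fast 2A and 81.3% (limits 80.4 to 82.3) in fast 2X fibres, with 3 of 7 plates in the opposite order.

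Fh1, fumarate hydratase (chromosome 1, 175600374 to 175625635, minus strand; ENSMUSG00000026526.14), was 126 CPM (95% limits 120 to 133) in fast 2A and 102 CPM (limits 99.2 to 106) in fast 2X fibres. Its log2 ratio was 0.30 (limits 0.21 to 0.39) and lay between 0.17 and 0.55 on the 7 plates, the narrowest range of any member. Fast 2A cells ran from 25.3 over 122 to 458 CPM and fast 2X cells from 0 over 93.3 to 358 CPM. The ranges overlapped, with 38 of 51 fast 2A cells above the fast 2X median.

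**Figure D3:**
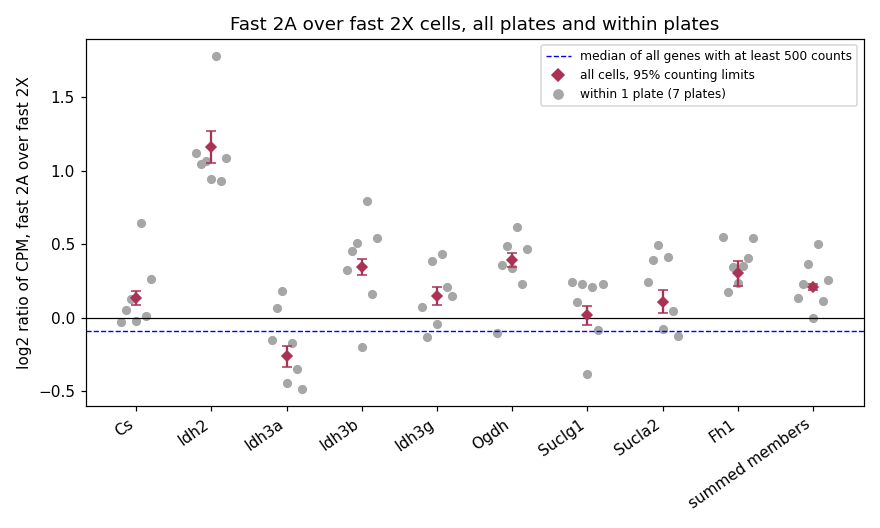
Log2 ratio of CPM, fast 2A over fast 2X (vertical axis), for each gene and the sum, with diamonds and 95% counting limits for all cells and grey points for the 7 single plates. Idh2 lies at 1.16 with all plates above 0.9, Idh3a lies at -0.26, and the dashed line is the median of all genes at -0.09.

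Ratios within plates ranged more widely than the counting limits of the pooled ratio for each member. Each plate holds only part of the counts and limits were not computed per plate, so this range includes counting error. On plate 709 the log2 ratio of the sum was 0.50, with Cs, Idh2, Idh3b and Ogdh past 1.5-fold, whereas on plate 708 it was -0.0021. The share of all genes past 1.5-fold on plate 709 was not computed. Within the lowest, middle and highest tertile of total counts the sum had log2 ratios of 0.53, 0.22 and 0.08. Within fast 2A cells the sum had a Spearman rho of -0.56 with total counts and -0.50 with the mt- share, and within fast 2X fibres these were -0.04 and -0.18. The part that depth, mt- share or plate had in the class differences was not tested.

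The class rule takes only the leading Myh gene, while the balance of Myh1 and Myh2 varied from cell to cell. By the Myh2 share of these genes together, 48 cells lay under 20%, 60 between 20% and 40%, 18 between 40% and 60% and 45 above 60%. Idh2 was 38.6, 51.6, 72.8 and 103 CPM in these bins, a step up at each. Idh3a was 225, 178, 173 and 170 CPM, so that its largest step lay between the first bin and the next. Idh3b (249, 255, 292 and 322.5 CPM) and Ogdh (314, 352, 377 and 430.1 CPM) were also higher in each further bin, by less than Idh2, and the sum was 1903, 1849, 1978 and 2178 CPM. Inside the classes, where the Myh genes that lead do not change, Idh2 had a rho with the Myh2 share of 0.28 in fast 2X and 0.26 in fast 2A cells. Idh3a had -0.26 and -0.30. Idh3b had only 0.10 and 0.09, and Ogdh 0.03 and 0.07, so that their rise over the bins was hardly seen inside a class. These cells share plates and the median total count fell from 330043 in the first bin to 193406 in the last, so the values are a description.

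**Figure D4:**
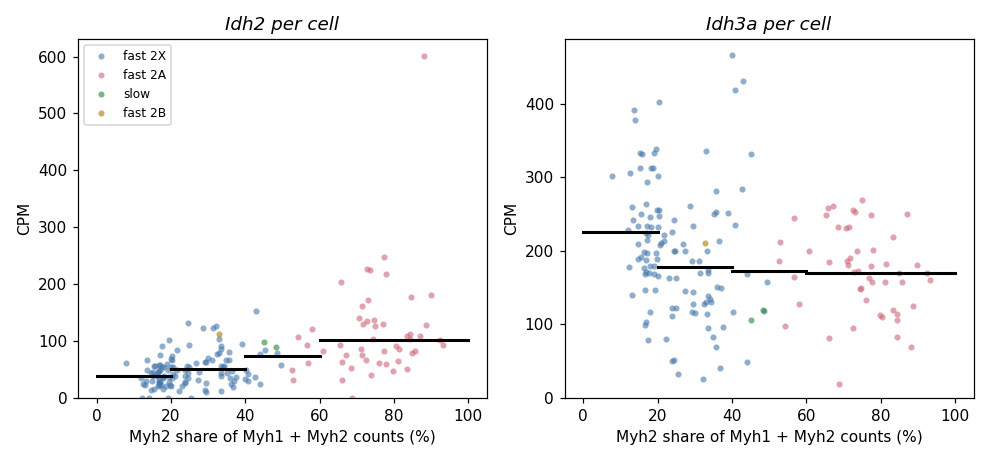
CPM per cell of Idh2 and Idh3a (vertical axes, linear) against the Myh2 share of Myh1 and Myh2 counts (horizontal axes, percent), coloured by class, with black lines at the summed CPM of the 4 bins. Idh2 steps from 38.6 to 103 CPM, and Idh3a drops from 225 CPM in the first bin to 178 CPM in the next.

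The 3 cells outside the main classes are single observations. The slow cells, with 76.1% and 77.3% of their Myh counts from Myh7, had sums of 1619 CPM (95% limits 1507 to 1737) and 1739 CPM (limits 1491 to 2017), below the fast 2A and fast 2X medians. Their Idh2 was 98.2 CPM (limits 72.1 to 131) and 89.4 CPM (limits 40.9 to 170), near the fast 2A median, and their Idh3a was 107 and 119 CPM. The fast 2B cell had a sum of 1288 CPM (limits 1153 to 1434), with Idh2 at 113 CPM (limits 75.6 to 162) from 29 counts and Fh1 at 27.2 CPM from 7 counts. Idh2 in this cell was above the fast 2X median of 44.5 CPM, while the sum was below the fast 2X median.

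Cells of 1 class differed in these genes by more than counting gives. The coefficient of variation of the sum was 25.1% in fast 2X and 22.2% in fast 2A cells, where counting alone gives 6.33% and 5.36%. Counting included, Ogdh varied least of the members, by 32.5% in fast 2X and 30.3% in fast 2A cells, where counting gives 14.9% and 11.9%. With the counting part removed it was lowest in fast 2X at 28.9%, while in fast 2A Idh3a was at 27.0% and Ogdh at 27.8%. Idh2 varied by 58.7% in fast 2X, where counting gives 39.5%, and by 76.3% in fast 2A, where counting gives 24.1%. The fast 2A value of Idh2 includes 1 cell at 601 CPM, with the next highest at 248 CPM, and was not computed without it. Fh1 varied by 58.4% in fast 2X, where counting gives 27.1%, and by 56.3% in fast 2A, where counting gives 22.0%. With the counting part removed, Fh1 varied by 51.8% and Idh2 by 43.5% in fast 2X fibres. In fast 2A cells these were 51.8% and, with the cell at 601 CPM included, 72.4%.

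The members went together only loosely from cell to cell. Over the 36 pairs of genes the median rho of per-cell CPM was 0.24 in fast 2X fibres, from 0.05 to 0.49, and 0.19 in the 51 fast 2A cells, from -0.12 to 0.36. In fast 2X cells Cs with Idh3a (0.49), Cs with Fh1 (0.46), Idh3a with Sucla2 (0.46) and Cs with Idh3b (0.45) were highest. Idh2 stood at the edge of the group there, with a median rho of 0.12 to the other 8 genes and none above 0.19, while in fast 2A cells its median was 0.20. It also had the fewest counts of the members, a mean of 14.9 per fast 2X and 23.2 per fast 2A cell. Low counts weaken a rho, and their part in the values of Idh2 was not tested. The points share plates and depth, and in cells thinned to 28827 counts the median over pairs in fast 2X fibres was 0.15.

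**Figure D5:**
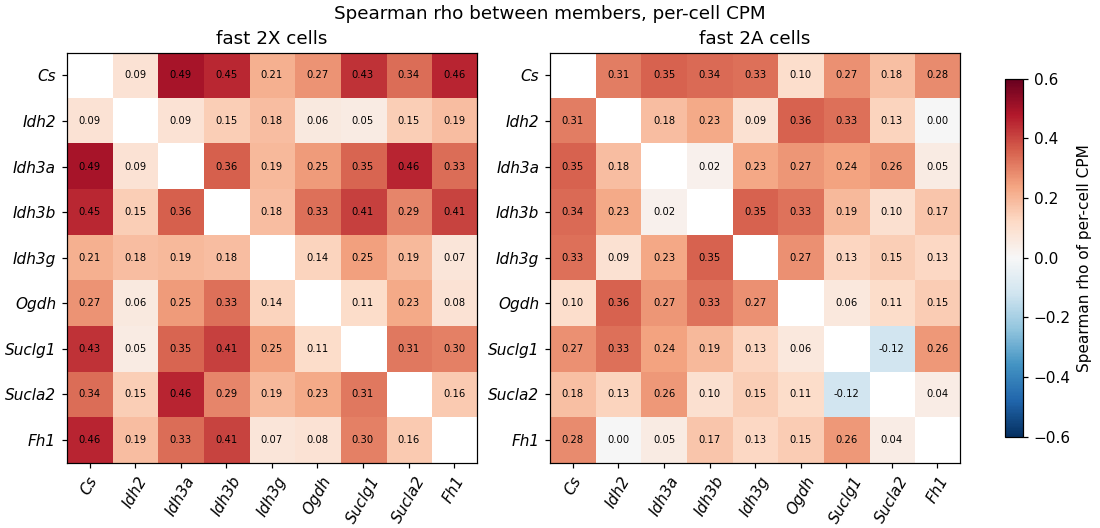
Spearman rho of per-cell CPM for each pair of the 9 genes in fast 2X (left) and fast 2A (right) cells, with red for positive and blue for negative values. In fast 2X cells the Idh2 row is pale, from 0.05 to 0.19, and the Cs row reaches 0.49.

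Among 1390 genes with a median of at least 20 counts per cell, members and mt- genes left out, the 5 most like the summed members in fast 2X fibres were Slc25a4 (rho 0.71), Atp5b (0.69), Atp5a1 (0.68), Acta1 (0.66) and Tpm2 (0.66). In fast 2A cells the same genes had a rho of 0.70, 0.80, 0.64, 0.73 and 0.62. Slc25a4 exchanges ATP and ADP across the inner mitochondrial membrane, Atp5b and Atp5a1 are ATP synthase subunits, and Acta1 and Tpm2 are thin filament genes. The median over all 1390 genes was 0.18 in fast 2X and 0.09 in fast 2A cells. Of the pathway genes, Pdk2 ranked at position 6 and Mdh2 at position 11, and the 17 of them with enough counts had a median rho of 0.44 in fast 2X fibres.

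Further genes of the cycle leaned the same way as the members. All 8 of those taken (Dlst, Dld, Suclg2, Sdha, Sdhb, Sdhc, Sdhd and Mdh2) had a ratio above 1, beside 36.9% of all genes. None passed 1.5-fold in either direction, beside 2.57% of all genes higher and 7.31% lower. Their median log2 ratio was 0.37, and their sum was 1882 CPM in fast 2A and 1509 CPM in fast 2X fibres. The mitochondrial malate dehydrogenase Mdh2 had a log2 ratio of 0.19. The succinate dehydrogenase genes ran from 0.23 for Sdhd to 0.47 for Sdhc, with Sdha at 0.33 and Sdhb at 0.38.

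Of 12 genes for the entry of pyruvate with at least 500 counts, 9 had a ratio above 1, beside 36.9% of all genes. None was higher by 1.5-fold, beside 2.57% of all genes, and 1 was lower, beside 7.31%. That one was Pdp1, a phosphatase that switches pyruvate dehydrogenase on, with 28.6 CPM in fast 2A and 99.1 CPM in fast 2X fibres, a log2 ratio of -1.79 (95% limits -1.95 to -1.63). The kinases that switch the enzyme off had log2 ratios of 0.37 for Pdk1, 0.13 for Pdk2 and 0.32 for Pdk4. The catalytic subunit gene Pdha1 had 0.48, with 220 against 158 CPM.

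Among 6 cytosolic or paralogous genes, 1 had a ratio above 1, beside 36.9% of all genes, and the median log2 ratio was -0.18. By 1.5-fold 1 gene was higher and 1 lower, beside 2.57% and 7.31% of all genes. Mdh1, the cytosolic malate dehydrogenase, was 338 against 208 CPM, a difference on the log2 scale of 0.70 (95% limits 0.64 to 0.75). Me1, the cytosolic malic enzyme that makes NADPH, was 71.2 against 114 CPM, a difference on the log2 scale of -0.68 (limits -0.79 to -0.57). Idh1, which makes NADPH from isocitrate in the cytosol, was 24.0 against 27.5 CPM (log2 ratio -0.19), opposite in sign to its mitochondrial counterpart Idh2. Of 5 genes that feed the cycle or carry its intermediates, all had a ratio above 1, beside 36.9% of all genes. Only Got2, the mitochondrial aspartate aminotransferase, passed 1.5-fold, with a log2 ratio of 0.73, beside 2.57% of all genes higher by that much.

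In the 592 cells outside the filters the members were set as CPM of all counts but those of mt- genes. Their sum was 1509 against 2072 CPM in the 171 cells, and every member was lower, from Idh3a (124 against 209 CPM) to Idh3g (223 against 245). Idh2 was 50.1 (95% limits 45.1 to 55.5) against 61.7 CPM (limits 59.5 to 63.9). The 90 fragments among them had a sum of 1647 CPM and the 111 cells left out for their mt- share only had 1389 CPM.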

How the data were processed

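Single FDB myofibers were isolated by large particle sorting and sequenced by mcSCRB-seq, in which each captured molecule carries a unique molecular identifier (UMI). Per the labels and the methods of the study, the authors mapped reads to GRCm38 with zUMIs (STAR 2.5.4b, featureCounts). The deposited gene rows hold whole, unnormalized UMI counts, not estimated counts, although percentages describing the cells stand above them in the same columns. Lane, plate and cell kind were read from those rows.

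Counts were summed per class, divided by the class total and given as CPM with exact Poisson 95% limits. Ratios have exact conditional binomial limits and shares exact Clopper-Pearson limits (SciPy 1.17.1), all for counting error only. Cells of 1 sample are not replicates, so no p-value was computed and a gene was counted as different by its fold. Doublets were not called. All 9 members were described, and of the other pathway lists the genes past 1.5-fold or of a member's enzyme were named, with some further genes for context. Marker lists were given as sums. From the pathway lists 1 gene was left out and is not analysed here. TMM factors came from edgeR 4.0.16. Coordinates and exon lengths are from GENCODE on GRCm38. The code was tested on simulated data. The members, lists and bins were chosen with earlier results of these data known.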

Additional observations from a re-analysis of the deposited data

How the results depend on the processing

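Limits: cells are not tied to animals, so no value here measures the spread between mice, and depth per cell limits Idh2 most, with a mean of 14.9 counts per fast 2X and 23.2 per fast 2A cell. No paired analysis was possible because the sample numbers name sequencing lanes, not animals, and no test was made between classes. Values within lanes and plates are given instead. Of the 34 alternatives, 1 left Myh8 out of the class rule and could change nothing, since Myh8 led in no cell. TMM scaling raised every log2 ratio by 0.11, so it could not lower one. The log2 ratio of the summed members was above 0 in 33 of 34 alternatives. It was 0.32 with TMM factors, 0.24 with the total without mt- genes, 0.26 without Ttn, Acta1 and mt- genes, 0.29 for the mean and 0.25 for the median over cells, 0.29 in thinned cells and 0.24 with mt- counts below 10%. It was 0.14, 0.23, 0.37, -0.0021, 0.50, 0.11 and 0.26 within plates 705, 706, 707, 708, 709, 711 and 712, and 0.53 and 0.080 within the lowest and highest tertile of totals. Leaving out 1 plate gave 0.15 (without plate 709) to 0.24, and leaving out lane 1 or 2 gave 0.27 or 0.18. Without cells over 200 CPM of other cells' markers, chosen after seeing the data, it was 0.17. The number of members past the fold was 4 within plate 709 and within the lowest tertile, 3 at a threshold of 25%, and 1 in the other 32 alternatives. At 25%, 9.07% of all genes were higher and 22.2% lower. The share of all genes past the fold was not computed within plates or tertiles, where fewer counts make large ratios more frequent. Idh2 stayed past 1.5-fold in all 34 alternatives (0.93 to 1.78). Idh3a was below 0 in 32 of 34, and Suclg1 was above 0 in 28. The level of the sum over all cells was 2030 CPM as a mean and 2081 CPM as a median over cells, and 2072 CPM without mt- genes. By medians over cells the sum had a log2 ratio of 0.30 between the outer Myh2 bins (0.19 from summed counts). The Idh3a share differed by -5.87 points by medians over cells (-6.96 from summed counts). The median rho between members in fast 2X fibres was 0.15 in thinned cells, against 0.24. With genes of at least 1 count in each class the share past 1.5-fold higher was 14.5%, and at 100 counts it was 4.13%. The cause of these differences was not tested.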
